A study of Mus musculus with 4 samples.

Results

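The EGF receptor family and its ligands, as described here, are 10 genes picked by symbol from the 35857 genes listed in every library: the 4 receptor genes Egfr, Erbb2, Erbb3 and Erbb4, and the 6 ligand genes Hbegf, Areg, Btc, Nrg1, Egf and Tgfa. Their messenger RNA was compared between 2 libraries from cells with both copies of Qk knocked out (Qk_KO, genotype Qk-/-) and 2 control libraries from wild-type cells. All 4 libraries were made from C57BL/6 neural stem cells, which came from the cerebral cortex of embryos, are called glial progenitors in the labels and were collected 24 hr after the start of a glial differentiation. Qk encodes Quaking, an RNA-binding protein of glia. How Qk was removed, how differentiation was induced and whether replicates were separate cultures is not in the labels. The p-values thus measure only the spread between these libraries, which for the control pair may be technical. The 2 Qk_KO libraries differed in sex-linked RNA, as given below, so they were not repeats of the same cells.

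The ErbB receptors are tyrosine kinases that sit in the plasma membrane and work in pairs. Egfr binds the EGF-like ligands Egf, Tgfa, Hbegf, Areg and Btc, Erbb3 and Erbb4 bind the neuregulins, Erbb2 has no known soluble ligand of its own and serves as a shared partner, and Erbb3 has little kinase activity. The ligands are made as membrane proteins that proteases cut free, and the receptors signal through Ras and ERK kinases, PI3-kinase and STAT factors. In the developing cortex EGF receptor signalling is known for driving the growth of late progenitors and the making of astrocytes and oligodendrocyte precursors, and neuregulin signalling for its roles in radial glia, migrating interneurons and Schwann cells.

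Levels are given as TPM, the authors' measure of a gene's share of all transcripts after correction for length, with replicate 1 of a group before replicate 2. Read depth cannot be recovered from this unit and is unknown. Qk itself was at 36.1 and 43.7 TPM in the 2 Qk_KO libraries, against 208 and 215 TPM in the 2 control libraries, on the side that the labels give in all 4 libraries. The Qk log2 fold change on log2(TPM + 1), Qk_KO over control, was -2.38 (SE 0.12, adjusted p = 0.00708, limma with Benjamini-Hochberg). Over the 13260 genes tested, Pearson's r of these log2 values was 0.978 within Qk_KO, 0.985 within control and 0.951 to 0.973 for pairs across the groups. The Qk_KO libraries also differed from each other in sex-linked RNA: Xist was at 0.04 TPM in Qk_KO replicate 1 and between 57.6 and 62.5 TPM in the other 3 libraries, and the Y-linked gene Eif2s3y was at 35.4 TPM in Qk_KO replicate 1 and listed at 0 in the others. None of the 10 family genes lies on a sex chromosome in GRCm38.

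The gene of the ligand HB-EGF, Hbegf, fell to 128 ± 6.25 TPM in Qk_KO, against 358 ± 115 TPM in control (SD, n = 2 each), and was the 1 family member that passed the test. Transcripts of Tgfa, Nrg1, Egfr and Erbb4 were also lower in both Qk_KO libraries than in both control libraries, by log2 fold changes between -0.67 and -1.09, but none of these 4 passed. Without Qk_KO replicate 1, the library that differed in sex-linked RNA, the log2 fold changes were -1.39 for Hbegf, -0.52 for Egfr and -0.56 for Nrg1, and none of these 3 passed. Erbb2 and Egf had overlapping groups. Erbb3, Areg and Btc stayed under a mean of 1 TPM over the 4 libraries, the level below which genes were not tested.

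Of the 7 members tested with limma, 0 were called higher and 1 was called lower at an adjusted p under 0.05 (Benjamini-Hochberg over all genes tested), where 3.24% of all 13260 genes were called, 1.83% higher and 1.42% lower. A count of 1 among 7 genes gives no result about the family as a group. Over all genes the test called 242 higher and 188 lower, and for the 12462 of them with a GC content in the annotation it called 452 higher and 335 lower. In those 12462 genes the split became 344 higher and 465 lower once the dependence of each library on GC content was taken out. At an unadjusted p under 0.05, 5 of the 7 members passed, against 28.4% of all genes. The 2 groups did not overlap for 5 of the 7 tested members, all 5 lower in Qk_KO, while 61.1% of all genes did not overlap, 33.6% higher and 27.5% lower. The log2 fold change lay below 0 for those 5 of 7 members and for 45.6% of all genes, and its median was -0.69 over the 7 members and 0.04 over all genes. In bulk RNA, fewer cells of a type and less RNA per cell cannot be told apart.

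**Figure D1:**
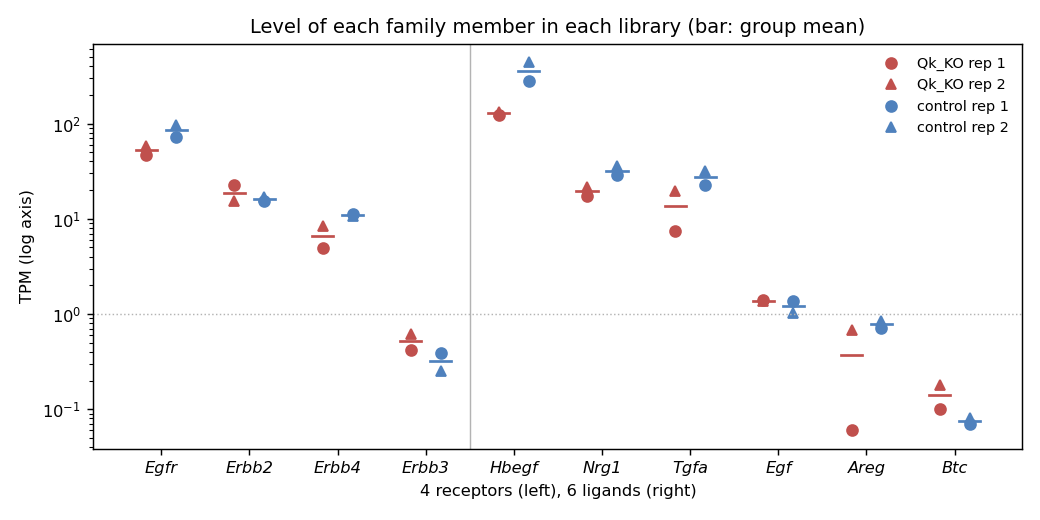
Level of the 10 genes in TPM on a log axis, receptors on the left and ligands on the right, with Qk_KO libraries in red and control libraries in blue, circles for replicate 1, triangles for replicate 2 and bars for group means. Hbegf stands highest in every library, and the dotted line marks 1 TPM, under which Erbb3, Areg and Btc lie in every library.

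The 10 genes differed widely in level. In Qk_KO the means ran from Hbegf over Egfr at 52.7 TPM, Nrg1 at 19.4, Erbb2 at 18.8, Tgfa at 13.5 and Erbb4 at 6.67 TPM to Egf at 1.38, Erbb3 at 0.515, Areg at 0.37 and Btc at 0.14 TPM. In control the order was Hbegf, Egfr at 84.7 TPM, Nrg1 at 32.1, Tgfa at 27.3, Erbb2 at 16.3, Erbb4 at 11.025, Egf at 1.2, Areg at 0.78, Erbb3 at 0.32 and Btc at 0.075 TPM. In the Qk_KO libraries each neighbour from Nrg1 to Erbb4 in this order overlapped with the next, as did Erbb3, Areg and Btc, and in the control libraries Nrg1 overlapped with Tgfa, so these places in the order are not separated beyond the spread. Hbegf and Egfr lay apart from each other and from all other members in both groups. Hbegf was more abundant, as a mean over the 4 libraries, than 95.03% of all genes tested, Egfr than 78.8% and Erbb4 than 27.3%.

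Hbegf encodes heparin-binding EGF-like growth factor, a membrane-anchored ligand of Egfr and Erbb4. The gene (Entrez ID 15200) lies on the minus strand of mouse chromosome 18 at 36504927 to 36515805 in GRCm38. Its level was 124 and 133 TPM in the 2 Qk_KO libraries, against 277 and 439 TPM in the 2 control libraries. The Qk_KO libraries were close to each other, and the groups did not overlap. In TPM, though not as a ratio, the control libraries were farther apart than control replicate 1 was from Qk_KO replicate 2. The log2 fold change on log2(TPM + 1) was -1.44 (SE 0.22, 95% interval -1.98 to -0.89, limma with Benjamini-Hochberg, adjusted p = 0.0426), that is 0.369 of the control level on the TPM + 1 scale. Of all genes tested, 0.626% had a lower log2 fold change. The call was lost without any 1 of the 4 libraries, with adjusted p between 0.0843 and 0.23 and log2 fold changes between -1.77 and -1.11 by limma, where the fits rest on 3 libraries. It was also lost with no filter on low genes (adjusted p = 0.143) and without limma's trend (0.0795).

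Tgfa, the gene of transforming growth factor alpha, another Egfr ligand (Entrez ID 21802, chromosome 6, 86195223 to 86275719, plus strand), was at 7.46 and 19.5 TPM in the 2 Qk_KO libraries, against 22.8 and 31.8 TPM in the 2 control libraries. Qk_KO replicate 1 was far below the other 3 libraries, and Qk_KO replicate 2 was just under control replicate 1. The log2 fold change was -1.09 (95% interval -2.14 to -0.03) at a limma adjusted p of 0.167 (Benjamini-Hochberg), and -0.45 without Qk_KO replicate 1. Nrg1, which encodes neuregulin 1, the ligand of Erbb3 and Erbb4 (Entrez ID 211323, chromosome 8, 31814551 to 32884029, minus strand), was at 17.5 and 21.4 TPM in the 2 Qk_KO libraries, against 28.8 and 35.4 TPM in the 2 control libraries. The groups did not overlap, and the control libraries were almost as far apart as control replicate 1 was from Qk_KO replicate 2. Its log2 fold change was -0.70 (95% interval -1.09 to -0.30) at a limma adjusted p of 0.0692 (Benjamini-Hochberg), so it did not pass.

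Egf, the gene of the family's founding ligand (Entrez ID 13645, chromosome 3, 129677565 to 129755316, minus strand), was hardly expressed, at 1.40 and 1.36 TPM in the 2 Qk_KO libraries, against 1.37 and 1.03 TPM in the 2 control libraries. Its groups overlapped, and the 95% interval of the fold on the TPM + 1 scale ran from 0.731 to 1.61, so neither a fall nor a rise within that range is excluded. Areg, which encodes amphiregulin (Entrez ID 11839, chromosome 5, 91139599 to 91148432, plus strand), was at 0.06 and 0.68 TPM in the 2 Qk_KO libraries, against 0.72 and 0.84 TPM in the 2 control libraries. Qk_KO replicate 1 was the low one, as for Tgfa. Btc, which encodes betacellulin (Entrez ID 12223, chromosome 5, 91357261 to 91402994, minus strand), was at 0.10 and 0.18 TPM in Qk_KO, against 0.07 and 0.08 TPM in control. At such levels, with unknown depth, no change can be read from either gene.

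Among the receptors, Egfr was the most abundant in every library. The gene (Entrez ID 13649) lies on the plus strand of chromosome 11 at 16752203 to 16918158. It was at 47.2 and 58.1 TPM in the 2 Qk_KO libraries, against 72.3 and 97.1 TPM in the 2 control libraries. The groups did not overlap, and the 2 control libraries were farther apart than the 2 Qk_KO libraries. They were also farther apart than control replicate 1 was from Qk_KO replicate 2. The Egfr log2 fold change was -0.67 (SE 0.18, 95% interval -1.11 to -0.22), or 0.63 of the control level on the TPM + 1 scale, and the adjusted p of 0.0878 (limma, Benjamini-Hochberg) did not pass. Erbb4, a receptor of neuregulins and of Hbegf and Btc (Entrez ID 13869, chromosome 1, 68032186 to 69108059, minus strand), was at 4.91 and 8.43 TPM in the 2 Qk_KO libraries, against 11.3 and 10.8 TPM in the 2 control libraries. The control libraries were nearly equal, and Qk_KO replicate 1 was the lowest. Its log2 fold change was -0.69 (95% interval -1.30 to -0.08) at a limma adjusted p of 0.143 (Benjamini-Hochberg), and -0.35 without Qk_KO replicate 1.

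Erbb2, the partner receptor also known as HER2 (Entrez ID 13866, chromosome 11, 98412470 to 98437716, plus strand), was at 22.4 and 15.2 TPM in the 2 Qk_KO libraries, against 15.6 and 16.95 TPM in the 2 control libraries. Both control values lay between the 2 Qk_KO values. The fold on the TPM + 1 scale had a 95% interval of 0.801 to 1.59, and the log2 fold change was 0.18 with all libraries and -0.09 without Qk_KO replicate 1. Some exons of Erbb2 overlap exons of Mien1 on the other strand in GENCODE M21, and Mien1 was at 152 and 180 TPM in Qk_KO and 144 and 137 TPM in control. The strand setting of the counting is not given in the sources used here, so reads of the shared stretch cannot be assigned to either gene with certainty. Erbb3 (Entrez ID 13867, chromosome 10, 128567523 to 128589652, minus strand) was at 0.42 and 0.61 TPM in Qk_KO and 0.39 and 0.25 TPM in control. It was the least abundant receptor in every library, while the oligodendrocyte lineage genes Olig1 and Olig2 were at 377 TPM or more in all 4 libraries.

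**Figure D2:**
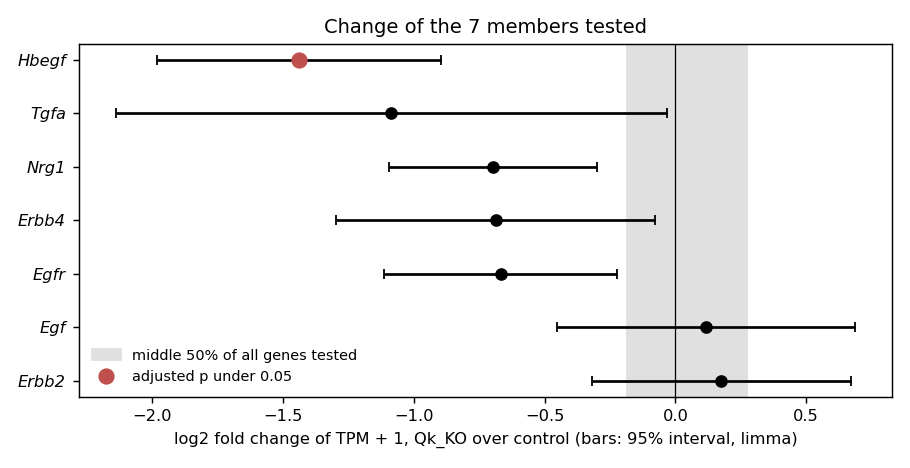
Log2 fold change, Qk_KO over control, of the 7 genes tested, with 95% intervals from limma as bars. The grey band holds the middle 50% of all genes tested, the red point is Hbegf, the 1 member with an adjusted p under 0.05, and the intervals of Egf and Erbb2 span 0.

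The promoter windows of 4 members show how differently these genes are built at their starts: a receptor and a ligand that were lower in Qk_KO but not called (Egfr, Tgfa), the receptor with overlapping groups (Erbb2) and a ligand under 1 TPM (Areg), shown because all 3 motifs occur in it. Each window runs from 250 bases before to 50 bases after the start of a RefSeq transcript in GRCm38.p6, 5′ to 3′ on the gene's own strand. Capitals mark the GC box GGGCGG, the TATA box TATAAA and the cAMP response element TGACGTCA, each searched on both strands. The Areg window holds a cAMP response element just before a GC box, then a TATA box, and the Erbb2 window holds none of the 3 motifs. All 4 windows lie on plus strands, at chr11:16751953-16752252 (Egfr), chr11:98412234-98412533 (Erbb2), chr6:86194972-86195271 (Tgfa) and chr5:91139349-91139648 (Areg).
Egfr: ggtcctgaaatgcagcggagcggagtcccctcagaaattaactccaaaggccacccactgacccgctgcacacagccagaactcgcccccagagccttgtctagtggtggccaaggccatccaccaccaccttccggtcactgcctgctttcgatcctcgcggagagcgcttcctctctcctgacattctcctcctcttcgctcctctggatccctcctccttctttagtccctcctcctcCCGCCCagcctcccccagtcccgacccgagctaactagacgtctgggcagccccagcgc
Erbb2: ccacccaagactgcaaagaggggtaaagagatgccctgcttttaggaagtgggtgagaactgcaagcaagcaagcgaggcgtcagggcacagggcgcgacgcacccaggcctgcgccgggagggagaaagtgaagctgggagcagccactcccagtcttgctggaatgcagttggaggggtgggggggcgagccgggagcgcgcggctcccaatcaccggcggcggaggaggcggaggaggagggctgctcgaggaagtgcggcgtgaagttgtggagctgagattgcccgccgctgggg
Tgfa: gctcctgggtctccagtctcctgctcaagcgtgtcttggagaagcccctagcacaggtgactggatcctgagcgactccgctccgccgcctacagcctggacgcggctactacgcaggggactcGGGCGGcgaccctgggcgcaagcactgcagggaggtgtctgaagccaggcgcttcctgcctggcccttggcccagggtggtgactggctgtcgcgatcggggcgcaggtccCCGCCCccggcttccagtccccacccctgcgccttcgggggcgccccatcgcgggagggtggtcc
Areg: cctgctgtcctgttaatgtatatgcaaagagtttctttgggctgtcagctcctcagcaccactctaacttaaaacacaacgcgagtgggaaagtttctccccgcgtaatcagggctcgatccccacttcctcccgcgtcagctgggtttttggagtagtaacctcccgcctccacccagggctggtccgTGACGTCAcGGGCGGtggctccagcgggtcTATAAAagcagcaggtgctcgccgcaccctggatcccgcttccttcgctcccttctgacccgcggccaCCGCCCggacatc

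RefSeq windows were found for 7 of the 10 members, and Erbb3, Hbegf and Nrg1 had none in the table used. The GC box was found once in the Egfr window, in 2 places each in the Tgfa and Areg windows, and in 35.7% of all 32851 windows. No window of Erbb2, Erbb4, Egf or Btc held it. The TATA box and the cAMP response element, both held by Areg alone among the members with a window, and not by Btc, the other ligand under 1 TPM, were found in 13.6% and 1.79% of all windows. Guanine and cytosine made up 62.3% of the Egfr window, 66.0% of the Erbb2 window, 70.7% of the Tgfa window and 59.3% of the Areg window, against a median of 52.7% over all windows. Of the members whose windows are not shown, Btc had 60.3% and Erbb4 55.3%, while the 2 Egf windows, at 49.0% and 52.3%, lay below that median. A match of letters is a description of the window and no evidence of binding.

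Quaking is known to bind RNA at the core letters ACUAAC or ACUAAU, so the 3′ UTRs of the members were searched for ACTAAC and ACTAAT on the transcript strand (GENCODE M21, the transcript with the longest 3′ UTR of each gene). Egfr holds 2 such sites in 6303 bases, Erbb4 holds 5 in 7855 bases, and Hbegf and Btc hold 1 each, in 1456 and 2069 bases. Erbb2, Erbb3, Areg, Nrg1, Egf and Tgfa hold none. The letters are common: of 3′ UTRs whose length was within 20% of the member's own, 85.0% held a site for the length of Egfr, 93.1% for Erbb4, 36.3% for Hbegf, 48.8% for Btc, 67.1% for Nrg1 and 69.3% for Tgfa. Among the 5 tested members with lower values in both Qk_KO libraries the sites are present in Hbegf, Egfr and Erbb4 and not found in Nrg1 and Tgfa. Areg, too scarce to be tested, also had lower values in both Qk_KO libraries and holds no site. The 2 Egfr sites, from bases 2492 and 5868 of the 3′ UTR, and the 2 ACTAAC sites of Erbb4, from bases 5845 and 7492, are shown with the core in capitals.
Egfr first site: gggcatctttctACTAACtgcctttcagcc
Egfr second site: tgtgatgacatgACTAACcacagacagcag
Erbb4 first ACTAAC site: ttattgctgccaACTAACttatttactttg
Erbb4 second ACTAAC site: cacttaacacatACTAACttttttaatgtt

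Summed over the 6 ligands, transcripts came to 150 and 176 TPM in the 2 Qk_KO libraries, against 331 and 508 TPM in the 2 control libraries. Hbegf alone made up 82.4% and 75.5% of that sum in Qk_KO and 83.7% and 86.4% in control, so the sum mostly repeats Hbegf. The 4 receptors summed to 74.98 and 82.4 TPM in Qk_KO and 99.5 and 125 TPM in control. Egfr held 63.0% and 70.6% of the receptor sum in Qk_KO, against 72.6% and 77.7% in control, while Erbb2 held 29.9% and 18.5% in Qk_KO, against 15.6% and 13.6% in control. Hbegf exceeded Egfr 2.62-fold and 2.28-fold in Qk_KO, against 3.83-fold and 4.52-fold in control, and Egfr exceeded Erbb2 2.11-fold and 3.82-fold in Qk_KO, against 4.65-fold and 5.73-fold in control. Neither of these 2 ratios overlapped between groups, while the other 4 computed between pairs of members did. An exact two-sided permutation test of 2 against 2 libraries cannot give a p below 0.333, so these ratios are given as values. Nrg1 over Erbb4 was 3.56 and 2.54 in Qk_KO and 2.56 and 3.29 in control, and Egfr over Erbb4 was 9.62 and 6.89 in Qk_KO and 6.41 and 9.02 in control. Tgfa over Egfr was 0.158 and 0.336 in Qk_KO and 0.316 and 0.327 in control, and Hbegf over Tgfa was 16.6 and 6.80 in Qk_KO and 12.1 and 13.8 in control.

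**Figure D3:**
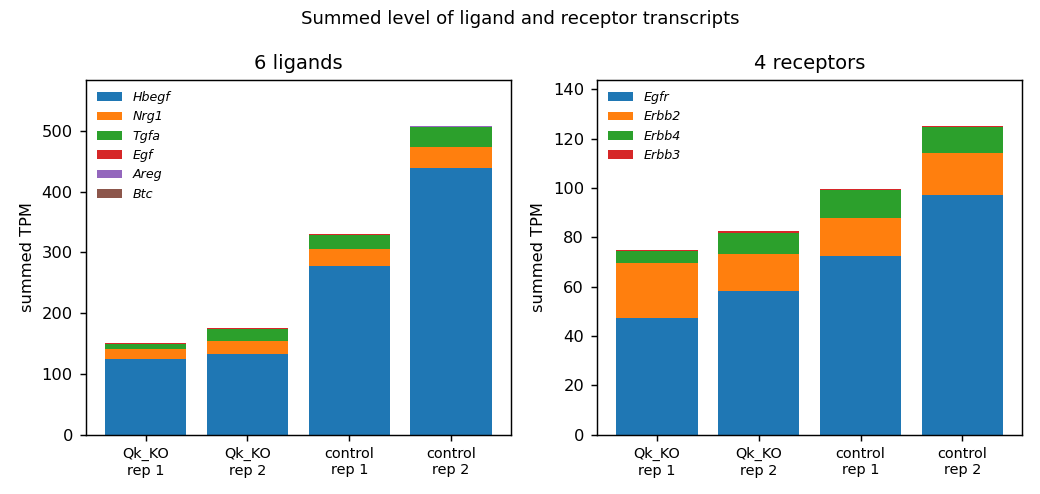
Summed TPM of the 6 ligand genes (left) and the 4 receptor genes (right) in each library, stacked by gene. Hbegf makes up most of every ligand bar, which reaches 150 and 176 TPM in Qk_KO and 331 and 508 TPM in control, and Egfr makes up most of every receptor bar.

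The genes whose levels followed Hbegf most closely over the 4 libraries, by the root mean square difference of log2(TPM + 1) after centring each gene, were Tnfrsf12a at 0.0404, Epha2 at 0.125, Slc1a3 at 0.148, Snx5 at 0.16 and Gng12 at 0.166 log2 units. Genes under a mean of 10 TPM were left aside. Tnfrsf12a, which encodes the receptor of the cytokine TWEAK, was at 242 and 266 TPM in the 2 Qk_KO libraries, against 521 and 821 TPM in the 2 control libraries. Like Hbegf it was even between the Qk_KO libraries and higher in control replicate 2 than in control replicate 1. Epha2, an ephrin receptor, was at 14.9 and 14.5 TPM in Qk_KO and 30.0 and 43.1 TPM in control, and Slc1a3, the glutamate transporter of astrocytes and radial glia, at 117 and 150 TPM in Qk_KO and 338 and 435 TPM in control. Snx5, a sorting nexin of endosomes, and Gng12, a G protein subunit, followed the same order of groups. All 5 were themselves called lower, with log2 fold changes between -1.24 and -1.56 and adjusted p between 0.0175 and 0.04445 (limma, Benjamini-Hochberg). With 4 libraries in 2 groups, many genes that differ between the groups have such a pattern by construction.

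**Figure D4:**
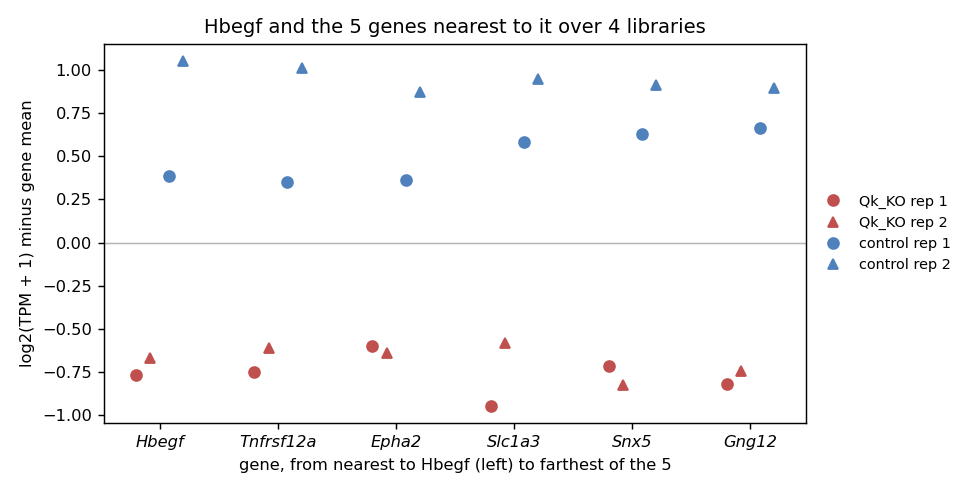
Levels of Hbegf and the 5 genes nearest to it as log2(TPM + 1) minus each gene's mean over 4 libraries, with Qk_KO libraries in red and control libraries in blue, circles for replicate 1 and triangles for replicate 2. In all 6 genes both Qk_KO libraries lie below 0 and both control libraries above it, with control replicate 2 the highest.

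The other ligands of the family were scarce. Nrg2, a second neuregulin, was the only 1 of 5 to be tested, at 4.95 and 4.78 TPM in Qk_KO and 2.66 and 2.89 TPM in control. This was the opposite direction from Nrg1, with a log2 fold change of 0.64 and an adjusted p of 0.0904 (limma, Benjamini-Hochberg), so it did not pass. Nrg3 was at 0.37 and 1.16 TPM in Qk_KO and 0.79 and 0.45 TPM in control, and Ereg, Epgn and Nrg4 were at 0.25 TPM or less in every library.

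Of the genes for ligand release, 0 of 19 tested were called in either direction, with 10 log2 fold changes below 0 and a median of -0.11. Of all genes tested, 1.83% were called higher and 1.42% lower. Without overlap, 4 of the 19 were higher and 8 were lower in Qk_KO, against 33.6% and 27.5% of all genes. The 2 most abundant were Cd9, a tetraspanin that binds the Hbegf precursor, at 283 and 401 TPM in Qk_KO and 340 and 395 TPM in control, and Nrd1, the protease nardilysin that promotes Hbegf shedding, at 103 and 113 TPM in Qk_KO and 121 and 127 TPM in control. Adam17, the main protease that sheds Hbegf, Tgfa and Areg, was at 31.6 and 31.0 TPM in Qk_KO, against 43.3 and 54.1 TPM in control (limma with Benjamini-Hochberg, adjusted p = 0.0667). Rhbdf1, whose product helps Adam17 mature, was at 45.0 and 41.8 TPM in Qk_KO, against 63.5 and 62.4 TPM in control (adjusted p = 0.0524). Rhbdl1, a rhomboid-like gene, lay the other way, at 16.5 and 17.02 TPM in Qk_KO and 10.3 and 6.63 TPM in control (adjusted p = 0.0683). None of these 3 passed. They, and the genes Spry4, Fosl1, Etv5 and Fgfr1 given with the lists that follow, were picked after their values were seen.

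Of the receptor inhibitors and degradation genes, 0 of 29 tested were called, 17 log2 fold changes lay below 0, 7 genes were higher and 10 lower without overlap, and the median was -0.07. The most abundant were Epn1, an endocytic adaptor, at 210 and 223 TPM in Qk_KO and 218 and 209 TPM in control, and Stub1, a ubiquitin ligase that acts on Erbb2, at 224 and 237 TPM in Qk_KO and 198 and 180 TPM in control. Of the adaptors and kinases that carry ErbB signals, 1 of 49 tested was called higher, 0 lower and 48 were not called, with 17 higher and 18 lower without overlap and a median of 0.03. The gene called was Mapk3, which encodes the kinase ERK1, at 240 and 228 TPM in Qk_KO, against 146 and 110 TPM in control, a log2 fold change of 0.88 (limma with Benjamini-Hochberg, adjusted p = 0.0480). Over all genes tested, 1.83% were called higher and 1.42% lower, 45.6% lay below 0, and 33.6% were higher and 27.5% lower without overlap.

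Of the ERK feedback and immediate ERK target genes, 0 of 19 tested were called higher, 1 was called lower and 18 were not called, yet 18 of the 19 log2 fold changes lay below 0, with a median of -0.60, and 16 had no overlap, with Qk_KO below control. Over all genes tested, 1.83% were called higher and 1.42% lower, 45.6% lay below 0, 27.5% were lower without overlap and the median was 0.04. The gene called was Phlda1, an ERK-induced gene, at 17.99 and 16.6 TPM in Qk_KO, against 28.9 and 33.6 TPM in control (log2 fold change -0.82, limma with Benjamini-Hochberg, adjusted p = 0.0438). Spry4, a Sprouty inhibitor of receptor signalling, was at 20.3 and 23.1 TPM in Qk_KO and 30.0 and 33.3 TPM in control, and Fosl1, an AP-1 subunit, at 1.65 and 5.53 TPM in Qk_KO and 13.0 and 20.3 TPM in control, and neither was called. Etv5 was the exception in sign, at 85.6 and 89.7 TPM in Qk_KO and 81.5 and 76.8 TPM in control. The genes of this list respond to many receptors, and no set test was run.

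Of 19 other growth factor receptors tested, 0 were called higher, 3 lower and 16 were not called, with 6 higher and 8 lower without overlap and a median of -0.07. Over all genes, 1.83% were called higher and 1.42% lower, and 33.6% were higher and 27.5% lower without overlap. Those called were Pdgfra, the receptor of oligodendrocyte precursors, at 5.37 and 12.1 TPM in Qk_KO, against 53.1 and 35.8 TPM in control, Axl, a receptor of the vitamin K-dependent ligand Gas6, at 38.5 and 36.1 TPM in Qk_KO, against 63.3 and 69.3 TPM in control, and Epha2. Their log2 fold changes were -2.29, -0.81 and -1.24. Fgfr1 was at 168 and 160 TPM in Qk_KO and 150 and 145 TPM in control and was not called.

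**Figure D5:**
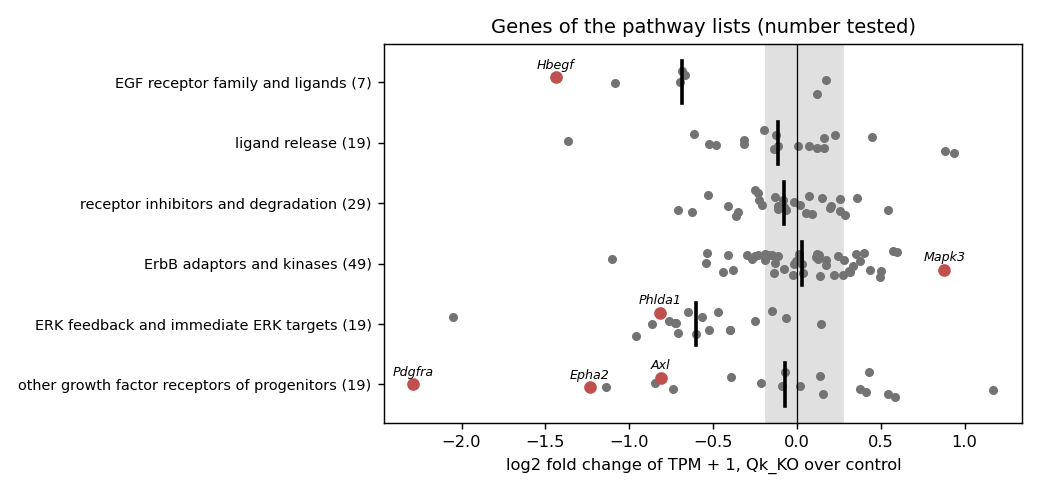
Log2 fold change, Qk_KO over control, of each gene tested in 6 lists, with the number tested in brackets, black bars at the medians, red points for genes with an adjusted p under 0.05 and a grey band for the middle 50% of all genes tested. The medians are -0.69 for the EGF receptor family and ligands and -0.60 for the ERK feedback list, and between -0.11 and 0.03 for the other 4.

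The libraries carried RNA of cortical progenitors, with Fabp7 between 2354 and 3144 TPM and Sox2 between 195 and 239 TPM in all 4, and the astrocyte filament gene Gfap between 44.0 and 72.2 TPM. The 10 radial glia and neural stem cell markers summed to 6482 to 6731 TPM in Qk_KO and 6013 to 6302 TPM in control, with 1 of 10 called higher, Pax6, and 5 higher and 0 lower without overlap. Fabp7 and Vim made up most of this sum in every library. The 10 astrocyte markers summed to 584 to 659 TPM in Qk_KO and 708 to 764 TPM in control, with 1 of 9 tested called higher, Aqp4, and 1 lower, Slc1a3, and 2 higher and 3 lower without overlap. Slc1a3 was the largest part of this sum in control. Aldh1l1 lay the other way, at 229 and 108 TPM in Qk_KO and 52.0 and 32.9 TPM in control, and was not called. The sum thus says little about the list as a whole. Over all genes, 33.6% were higher and 27.5% lower without overlap, and 1.83% were called higher and 1.42% lower. These shares apply to the counts for other cells too. The 13 microglia and macrophage markers summed to 21.8 to 29.6 TPM in Qk_KO and 50.7 to 61.6 TPM in control, 8 of 8 tested were lower without overlap with 0 called, and the microglial gene P2ry12 was listed at 0 in 1 library of each group. The 10 neuron markers summed to 834 to 878 TPM in Qk_KO and 385 to 603 TPM in control, with 2 of 10 called higher, Ina and Snap25, and 4 higher and 0 lower without overlap. The 10 oligodendrocyte precursor markers summed to 963 to 1167 TPM in Qk_KO and 1054 to 1246 TPM in control, with 1 of 9 tested called lower, Pdgfra, and 0 higher and 6 lower without overlap. Most of that sum came from Olig1 and Olig2, whose groups overlapped, so it says little about the other markers of the list. Interneuron lineage markers stood out in Qk_KO replicate 1. This library also had the lowest Hbegf, Tgfa, Nrg1, Egfr, Erbb4 and Areg, and the highest Erbb2 and, narrowly, Egf. The interneuron markers summed to 188 TPM there, 36.0 TPM in Qk_KO replicate 2, and 43.8 and 28.4 TPM in control. Of these markers, 0 of 7 tested were called and 2 were higher without overlap. The pericyte, fibroblast and meninges list summed to 4062 and 1867 TPM in Qk_KO and 1733 and 1592 TPM in control, almost all from the actin gene Acta2 and from Tagln, with 0 of 6 tested called and 1 higher and 1 lower without overlap. The 8 endothelial markers summed to 6.43 to 7.73 TPM in Qk_KO and 5.82 to 6.99 TPM in control, with 0 of 2 tested called and 1 higher without overlap, and the 6 erythroid markers to 1.56 TPM or less, with Hbb-bt and Alas2 at 0 in all libraries. The part of these cells in the values of the family was not tested.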

How the data were processed

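Per the labels' protocols, poly(A)-selected RNA was read with the Ion Proton System. For each of 4 libraries (2 Qk_KO, 2 control) the authors deposited 1 table of TPM by gene, with a sum of 1000000 up to rounding error. STAR 2.4.1d and RSEM 1.3.0, with mm10 and GRCm38.p4, are named in the submitters' processing notes; for annotation and strand setting the sources used here give nothing, and read depth is unknown, so precision rests on the spread between libraries. TPM is relative: abundant genes that go up push the rest down.

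Values were taken as log2(TPM + 1). A mean of 1 TPM or more was required, and the 13260 genes left were compared, Qk_KO minus control, by limma 3.58.1 in R 4.3.3 (mean-variance trend, two-sided, 5.57 degrees of freedom, Benjamini-Hochberg over all genes tested, threshold 0.05). The fit was also run on simulated data, with independent normal noise of the spread that the fit itself had estimated. Such data meet its assumptions by construction, so that run is no check of the calls given here. Fold changes on this scale understate the change of low genes. Members and gene lists were chosen with earlier results of these data known. All members were named, with up to 4 called genes of each pathway list by size of change, or the 2 most abundant where none was called. Alternatives were pseudocounts of 0.1 and 0.5, other filters, scalings and limma settings, a replicate block, removal of small RNA genes or of GC trends, and each library left out. Figures used matplotlib 3.10.9.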

Additional observations from a re-analysis of the deposited data

How the results depend on the processing

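Across 16 alternatives the members tested kept the sign of their log2 fold change in 110 of 111 values, the exception being Erbb2 without Qk_KO replicate 1, at -0.0889. Many of these values could not change sign. The filters, the limma settings and the replicate block leave the log2 fold change as it is by construction. So do the removal of small RNA genes and the restriction to genes with a GC content. The Hbegf call was lost, at an unmoved log2 fold change of -1.44, with no filter on low genes and without limma's trend, so the count of members called was 0 there. Leaving out 1 library at a time gave 0 members called each time, with log2 fold changes of -1.77 to -1.11 for Hbegf, -0.88 to -0.46 for Egfr, -0.84 to -0.55 for Nrg1, -1.72 to -0.45 for Tgfa and -0.09 to 0.44 for Erbb2. In these fits a lone library is assumed to vary like the other group. With the replicate number as a block, 4 members were called, Egfr (-0.67), Nrg1 (-0.70) and Tgfa (-1.09) beside Hbegf, all with the main log2 fold changes, and 1277 genes in all. The deviations of same-numbered libraries correlated at 0.114 across genes, but with 2 pairs and no label that ties them, the numbers are not taken to pair the libraries.

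The count of all genes called was 430 as reported, 0 with no filter (4327 at an unadjusted p under 0.05 in limma), 649 at a mean of at least 5 TPM, 41 without limma's trend, 769 without 82 small RNA genes, 809 with the GC trend removed, which also leaves only the 12462 genes with a GC content, 787 for those 12462 genes with the GC trend kept, an alternative chosen after seeing the data, and between 1 and 92 with 1 library left out (12 without Qk_KO replicate 1, 92 without Qk_KO replicate 2, 7 without control replicate 1, 1 without control replicate 2). The smaller set of genes alone thus moved the count nearly as far as it did with the GC trend removed, and for the other settings the cause was not tested. The call of Qk was lost without control replicate 1 (adjusted p = 0.0843, limma), without control replicate 2 (0.117) and with no filter (0.108). Median-ratio scaling, quantile normalization and other pseudocounts changed no member's call. Read depth is unknown, so what it limits cannot be stated.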
